A study of Rattus norvegicus with 232 samples.

Results

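Genes that mark the projection neurons of the striatum, Drd1, Pdyn, Tac1, Drd2, Adora2a, Penk, Ppp1r1b, Rgs9 and Pde10a, were followed across inbred rat strains. The 9 are known markers of these neurons, taken as a list of symbols by a rule that names no measured value, though with earlier results of these data known, and all 9 were found among the 20859 genes of a RefSeq-based expression table. They were compared at 3 levels, namely between strains, between animals of 1 strain, and between repeated libraries of 1 animal. The series holds 232 total RNA libraries from brain of 74 inbred strains, and the table used here covers 214 of them. Libraries of the same strain and replicate number were averaged to 1 animal, which gave 197 animals. Of the 74 strains, 54 had 3 animals, 15 had 2 and 5 had 1. The groups were the strains themselves. They comprised the HXB/BXH recombinant inbred family with 30 strains, the FXLE/LEXF recombinant inbred family with 19, and 25 other inbred strains that included the HXB/BXH progenitors BN-Lx/Cub and SHR/OlaIpcv. No allele was engineered and no agent was given. The labels that give a sex give male, and the study's methods describe adult rats, although the labels used here give no age. The labels name the tissue whole brain, while the methods state that the brain was split sagittally and 1 side was sequenced, so the striatum was a small part of every sample. Nothing in the labels states how much striatum a sample held. A few animals stood apart in genes that bear on their labels, and whether any was mislabelled was not tested. The mean of 3 Y-linked genes was 9.35 to 9.46 in the 3 LEW/Crl animals and 9.06 in HXB17/Ipcv 2, against 9.94 to 11.51 in the other 193 animals. The mean of 4 liver genes was 18.77 in LE/Stm 2, the only animal of its strain, and at most 13.48 in the others. Without these 5 animals, an alternative chosen after seeing the data, the counts of members called over all strains, within each panel and in both strain contrasts were equal to those given below.

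Striatal projection neurons are the inhibitory output cells of the basal ganglia and fall into a pair of classes. Neurons of the direct pathway carry the D1 dopamine receptor and the peptides dynorphin and substance P, and neurons of the indirect pathway carry the D2 dopamine receptor, an adenosine receptor and enkephalin. Both classes use DARPP-32, RGS9-2 and phosphodiesterase 10A to shape the cyclic AMP response to dopamine. None of the 9 genes is restricted to the striatum. Penk, Pdyn and Tac1 are also expressed in cortical, hypothalamic and brainstem neurons, and Drd2 in midbrain dopamine neurons. In bulk tissue, fewer cells of a type and less RNA per cell cannot be told apart.

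Values were on a log2 scale, and whether they were divided by gene length is not given in the sources used here, so levels are compared between strains and animals and not between genes. Every member was measured in every animal. Among the direct-pathway genes, Drd1, the D1 receptor, stood at 9.84 in the lowest animal, 10.45 in the median animal and 10.81 in the highest. Pdyn, which encodes prodynorphin, stood at 9.72, 10.16 and 10.52 in the same order. Tac1, which encodes the substance P precursor, stood at 7.14, 7.61 and 8.14. Among the indirect-pathway genes, Drd2, the D2 receptor, stood at 8.28, 8.87 and 9.31. Adora2a, the adenosine receptor of these neurons, had the widest range of the 9, with 8.82, 9.68 and 10.19. Penk, which encodes proenkephalin, stood at 11.64, 12.06 and 12.52. Of the genes that both classes use, Ppp1r1b, which encodes DARPP-32, stood at 11.73, 12.36 and 12.82. Rgs9, a regulator of G protein signalling, stood at 9.60, 10.27 and 10.75, and Pde10a, the phosphodiesterase, at 12.25, 12.64 and 12.95. The lowest animal was the same one, HXB23/Ipcv 2, for Drd1, Adora2a, Rgs9 and Pde10a.

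Over the 69 strains with at least 2 animals, the difference between the highest and the lowest strain mean ran from 0.54 for Pde10a (1.45-fold) to 0.83 for Adora2a (1.78-fold), against a median of 0.55 over all genes. SHRSP/A3NCrl, a stroke-prone hypertensive strain, had the lowest mean of 6 members: Drd1 at 10.03, Drd2 at 8.48, Adora2a at 9.22, Penk at 11.77, Rgs9 at 9.84 and Pde10a at 12.33. The lowest mean of Pdyn was 9.82 in MWF/Hsd, that of Tac1 was 7.30 in LEXF8A/Stm and that of Ppp1r1b was 11.99 in BN-Lx/Cub. At the other end SR/JrHsd, the Dahl salt-resistant strain, was highest in Ppp1r1b at 12.66, Rgs9 at 10.55 and Pde10a at 12.87. HXB13/Ipcv was highest in Drd2 at 9.17 and Penk at 12.33, LEXF5/Stm in Tac1 at 7.90 and Adora2a at 10.05, WAG/RijCrl in Drd1 at 10.68, and HXB22/Ipcv in Pdyn at 10.43. When the 69 means were put in order, none of the 68 steps between neighbours exceeded the SD between animals of 1 strain in any member, and 4.56% of all genes had such a step. That SD ran from 0.120 for Pde10a and 0.122 for Pdyn to 0.222 for Adora2a. Across all 9 genes only 1 pair of neighbours, in Rgs9, had animals that did not overlap, which is 0.163% of the 612 steps beside 0.180% of the steps over all genes, a share near that background.

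**Figure D1:**
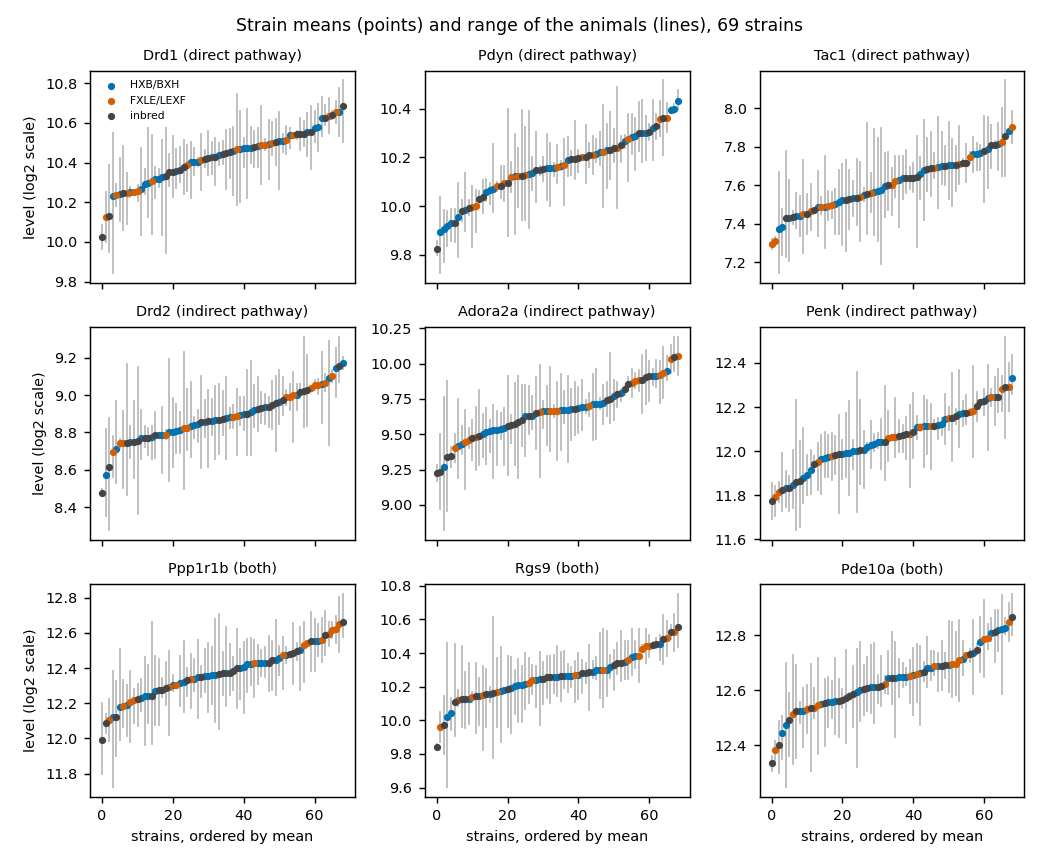
Level of each member (log2 scale, vertical axis) in the 69 strains with at least 2 animals, ordered by strain mean along the horizontal axis. Points are strain means coloured by panel and lines span the animals of the strain. Means rise in small steps from 9.22 to 10.05 in Adora2a and from 9.82 to 10.43 in Pdyn, and the lines of neighbouring strains overlap in nearly every case.

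The sequences just before the transcription start of a promoter entry are shown for 4 members picked from the results that follow. Pdyn had the largest share of its variance between strains, Tac1 co-varied least with the other members, and Drd2 and Rgs9 co-varied strongly, though other pairs had a higher r. RefSeq promoter entries on build GRCr8 were matched for 6 of the 9 members, with 2 entries for Pde10a. Adora2a, Penk and Ppp1r1b had no entry in the table. Each sequence is the 250 bases before the start, read 5′ to 3′ on the gene's strand. The Pdyn sequence is chr3:137366504-137366753 on the minus strand, Tac1 is chr4:36645333-36645582 on the plus strand, Drd2 is chr8:58605153-58605402 on the plus strand and Rgs9 is chr10:94770388-94770637 on the minus strand. The Tac1 gene is annotated from 36645344, so nearly all of its window lies inside the annotated gene. The other 3 windows end where the annotated gene begins. Capitals mark matches, on either strand, to 4 motifs that were searched: the cyclic AMP response element TGACGTCA, its variant TGCGTCA, the TATA box TATAAA and the GC box GGGCGG.
Pdyn: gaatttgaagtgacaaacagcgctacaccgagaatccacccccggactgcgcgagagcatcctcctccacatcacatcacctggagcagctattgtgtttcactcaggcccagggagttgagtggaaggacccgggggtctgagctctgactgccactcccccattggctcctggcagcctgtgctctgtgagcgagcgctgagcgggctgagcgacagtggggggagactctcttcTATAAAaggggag
Tac1: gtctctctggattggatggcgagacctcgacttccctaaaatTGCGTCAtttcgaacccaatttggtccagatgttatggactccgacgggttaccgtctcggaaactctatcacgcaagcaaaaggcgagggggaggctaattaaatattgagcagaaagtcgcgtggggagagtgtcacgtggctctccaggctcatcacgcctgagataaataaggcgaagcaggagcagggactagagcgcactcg
Drd2: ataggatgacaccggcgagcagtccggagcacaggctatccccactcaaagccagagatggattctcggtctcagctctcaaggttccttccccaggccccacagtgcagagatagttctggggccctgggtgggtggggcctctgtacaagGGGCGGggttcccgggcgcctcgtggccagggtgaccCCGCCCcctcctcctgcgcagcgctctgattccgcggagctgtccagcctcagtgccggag
Rgs9: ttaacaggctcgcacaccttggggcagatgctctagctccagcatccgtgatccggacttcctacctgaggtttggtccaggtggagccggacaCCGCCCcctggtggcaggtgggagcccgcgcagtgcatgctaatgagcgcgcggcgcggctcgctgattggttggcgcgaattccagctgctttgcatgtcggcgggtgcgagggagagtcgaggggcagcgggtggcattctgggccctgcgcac

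The Tac1 window held TGCGTCA with its first base 208 bases before the start of its promoter entry, and 1.66% of 33469 promoters of the same length held that motif. This match lies inside the annotated Tac1 gene. The Pdyn window held TATAAA 13 bases before the start, a motif in 12.9% of promoters. GGGCGG was found 98 and 61 bases before the start of Drd2 and 156 bases before that of Rgs9, and it was in 30.5% of promoters. No member's window held TGACGTCA, found in 1.59% of promoters. GC content was 52.4% for Tac1, 59.2% for Pdyn, 65.6% for Rgs9 and 66.0% for Drd2, beside a median of 51.2% over all promoters. These are matches of letters in a window and were not set against binding data.

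The question of how far genotype sets the level of each gene was addressed with the share of variance between strains, R2, from a 1-way layout, and with limma's moderated F-test adjusted over all 20859 genes by the Benjamini-Hochberg method. At 5% FDR a strain effect was called for 8 of the 9 members, beside 37.3% of all genes. Pdyn had the highest R2, 0.664, with an adjusted p of 3.33e-08. Penk followed with an R2 of 0.593 (adjusted p 4.12e-05), Pde10a with 0.579 (1.69e-04) and Drd1 with 0.556 (6.71e-04). Adora2a had an R2 of 0.529 and an adjusted p of 0.00301, and Ppp1r1b had 0.495 and 0.0191. Tac1, at 0.482 with an adjusted p of 0.0340, and Rgs9, at 0.475 with 0.0446, were close to the threshold. Drd2 did not pass, with an R2 of 0.462 and an adjusted p of 0.0695. The median R2 of the 9 was 0.529, and that of all genes was 0.451. With 2 or 3 animals in a strain, R2 is well above 0 even where no strain differs. After the spread between animals was subtracted, the strain share of the variance was 46.7% for Pdyn, 34.2% for Penk, 33.2% for Pde10a, 29.4% for Drd1 and 26.6% for Adora2a. It was 20.7% for Ppp1r1b, 18.1% for Tac1, 17.4% for Rgs9 and 14.6% for Drd2. The count of members called fell to 3 without the animals numbered 1 and to 2 without those numbered 2, and 6 were called without those numbered 3. Pdyn was called in all 3 of these fits. With batch as a covariate, Drd2 passed (adjusted p 0.0246) and Tac1 (0.0758) and Rgs9 (0.0726) did not. Of all genes 15.9%, 14.4% and 29.1% were called without the animals numbered 1, 2 and 3, and 58.9% with batch as a covariate.

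The panels differed in how many members were called. In the HXB/BXH family 3 members passed, Pdyn with an adjusted p of 6.23e-08, Pde10a with 0.0144 and Penk with 0.0153, beside 26.5% of all genes. In the FXLE/LEXF family Penk alone passed, with 0.0168, beside 7.47% of all genes. Among the other inbred strains 7 members passed, beside 23.2% of all genes, and Drd2 (adjusted p 0.126) and Tac1 (0.306) did not. With the animals of 1 replicate number left out, the count in HXB/BXH was 1 in each of the 3 fits, beside 12.6% to 14.2% of all genes. In FXLE/LEXF it was 0 without those numbered 1 or 2 and 1 without those numbered 3, beside 3.11%, 2.46% and 5.1% of all genes. In the other inbred strains it was 3, 0 and 6 without those numbered 1, 2 and 3, beside 10.3%, 8.5% and 32.1%. These are limma F-tests of 3 unequal sets of strains, and the difference between panels was not tested. No sequencing batch held both HXB/BXH and FXLE/LEXF animals, so panel and batch cannot be told apart between these families. The methods also give the HXB/BXH family another source and tissue handling than the classic inbred strains they cover, its progenitors aside. Mean levels of the panels lay close together. Adora2a, for example, averaged 9.64 ± 0.15 (SD) over 30 HXB/BXH strains, 9.73 ± 0.21 over 16 FXLE/LEXF strains and 9.64 ± 0.22 over 23 other strains.

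Each strain was then set against the mean of all others, with p-values from limma adjusted over all genes and strains together. Of the 666 strain and member pairs, 7 were called (1.05%), and 1.2% of all gene and strain pairs were called, so the share among the members was near that of all genes. Pdyn gave 4 of the 7. The 3 MWF/Hsd animals had Pdyn at 9.80, 9.82 and 9.86, which was 0.33 ± 0.07 (SE) below the mean of the other strains (adjusted p 0.00242). The 3 HXB22/Ipcv animals had 10.40, 10.42 and 10.48, a difference of 0.29 ± 0.07 above it (0.0148), and those of BXH13/Cub had 10.38, 10.40 and 10.42, a difference of 0.25 ± 0.07 (0.0479). The ranges of MWF/Hsd and of either of these strains did not overlap, which was likely beforehand for strains picked as low and high. In HXB29/Ipcv the animals had 9.72, 9.92 and 10.04 (difference -0.26, adjusted p 0.0388), a wider spread. For Drd1 the 2 SHRSP/A3NCrl animals had 9.97 and 10.08, a difference of -0.40 ± 0.11 (0.0325), and for Pde10a they had 12.31 and 12.36, a difference of -0.30 ± 0.09 (0.0478). For Ppp1r1b the 3 BN-Lx/Cub animals had 11.80, 11.96 and 12.20, a difference of -0.38 ± 0.10 (0.0342). The number of called pairs depended on the animals, with 0 to 5 when the animals of 1 replicate number were left out, and each of the 7 pairs missed the threshold in at least 2 alternatives.

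Where a strain was low it tended to be low in many members at once. In SHRSP/A3NCrl all 9 members lay below the average of the 69 strain means, by 0.32 on average, and 8 were among the 10 lowest strains for that gene. Of 15 other genes used as striatal markers, 14 were below average in SHRSP/A3NCrl too. LEXF8A/Stm (-0.24), BN-Lx/Cub (-0.21) and ACI/SegHsd (-0.19) also had all 9 members below average. At the upper end SR/JrHsd (0.22), BXH13/Cub (0.20), LEXF11/Stm (0.20) and LEXF5/Stm (0.20) had all 9 above it. In total 7 strains had all 9 members below average, 10 had all 9 above, and 31 were mixed, with 3 to 6 members below. In the 7 strains, between 9 (HXB17/Ipcv) and 14 of the 15 other striatal genes were below average. In the 10 strains, between 9 (BDIX/NemOdaMcwi) and 14 of them were above it.

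The progenitors of the HXB/BXH family were compared directly. The 2 SHR/OlaIpcv animals were averages of 12 and 6 libraries, and those of BN-Lx/Cub rested on at most 2 each. The fit gave all animals equal weight, so values of unlike precision are compared here. All 9 members had lower means in BN-Lx/Cub than in SHR/OlaIpcv, and none was called by limma at 5% FDR, beside 4.51% of all genes, while 2 had an unadjusted p under 0.05. Adora2a stood at 8.97, 9.22 and 9.50 in the BN-Lx/Cub animals and at 9.49 and 9.87 in the SHR/OlaIpcv animals, a difference of -0.45 ± 0.20 (SE, adjusted p 0.185). Ppp1r1b stood at 11.80, 11.96 and 12.20 against 12.25 and 12.49, a difference of -0.38 ± 0.16 (0.165). The groups overlapped narrowly in Adora2a and did not overlap in Ppp1r1b. Nor did they in Penk, where the highest BN-Lx/Cub animal had 11.888 and the lowest SHR/OlaIpcv animal 11.895, and in Pde10a, with 12.59 and 12.60, both close to touching. In these 3 members BN-Lx/Cub was lower, and the groups did not overlap in 38.9% of all genes in either direction and in 19.6% with BN-Lx/Cub lower. The differences of the other 7 members ran from -0.03 in Pdyn to -0.29 in Rgs9. The 30 recombinant strains did not all fall between their progenitors, which was likely beforehand where the progenitors lay close together. The progenitor difference was -0.17 ± 0.17 (SE) in Drd2 and -0.15 ± 0.13 in Penk. Means of 2 or 3 animals scatter beyond such a gap, and the counts that follow were not tested or set against all genes. For Drd2, 25 of the 30 strain means were above both progenitors, at 8.61 and 8.78, and for Penk 22 were above 11.83 and 11.98. For Pdyn, whose progenitors were nearly equal at 10.13 and 10.15, 10 strains were below both and 17 above both, over a range of 0.54. For Adora2a, Ppp1r1b and Rgs9 no strain was below both progenitors, and 18, 16 and 16 strains lay between them. Between them lay also 20 strains for Pde10a and 13 for Drd1, but only 6 for Tac1, with 12 on either side. SHR/OlaIpcv and the normotensive WKY/NCrl differed by -0.05 to 0.17 over the 9 members, with adjusted p-values from limma of 0.819 to 0.999. No member was called there, beside 0.825% of all genes, and 0 had an unadjusted p under 0.05. The interval of 2 SE around the Drd1 difference, the largest of that contrast, ran from -0.10 to 0.45. By the methods, SHR/OlaIpcv brains came from a Prague colony in liquid nitrogen. Those of the classic inbred strains bought from suppliers were put in RNAlater. Source and tissue handling therefore cannot be told apart from strain in that contrast. In the deposited table of an earlier processing version, called v5, which rests on Ensembl and covers 132 animals, Pde10a was called in both contrasts (-0.38 with an adjusted p from limma of 0.0429, and 0.48 with 0.00126), and Drd1 in the latter (0.42 with 0.0231). In v5 the 2 contrasts called 4.37% and 24.6% of all genes.

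Whether the members rise and fall together was asked for animals and for strains separately. Deviations of 192 animals from their strain means hold no strain difference, and such deviations would carry unequal amounts of striatum in the tissue as well as any other difference between animals. Over animals, Pearson's r was positive in 34 of the 36 pairs of members, with a median of 0.534. By a two-sided permutation test with 100000 permutations within strains, adjusted over the 36 pairs, 30 pairs passed at 5% FDR, all positive. Adora2a and Rgs9 were the closest pair, with r = 0.813 and rho = 0.806. Adora2a and Ppp1r1b followed with r = 0.753 (rho = 0.743), Rgs9 and Pde10a with 0.747 (0.719), Drd1 and Pde10a with 0.731 (0.701), and Drd2 and Rgs9 with 0.703 (0.676). For each of these 5 pairs the permutation p for r and for rho was 1e-05, the smallest that the permutations can give, and 1.5e-05 after adjustment. Without the 2 animals farthest from the median of the gene named first, r stayed between 0.689 and 0.800 in the 5 pairs.

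Tac1 stood outside this pattern. Of the members it alone had a mean level below the table median, with 43.6% of genes lower, and the part of this in its r was not tested. Its 8 pairs had r from -0.067 with Ppp1r1b to 0.308 with Penk, with a median of 0.143, whereas the 28 pairs without Tac1 ran from 0.255 to 0.813. The 6 pairs that did not pass were all pairs of Tac1, among them that with Pdyn, a gene of the same class of neurons (r = -0.019, rho = 0.048, permutation p 0.847 and 0.597, and 0.847 and 0.614 after adjustment). Tac1 and Drd1 passed with r = 0.215 and rho = 0.242 (permutation p 0.0197 and 0.00673, adjusted 0.0236 and 0.00835), and r was 0.203 without the 2 farthest animals. The median of the 8 Tac1 pairs was 0.275 without the animals numbered 1, 0.018 without those numbered 2 and 0.336 in the v5 table, which holds 132 animals and in which all 36 pairs were positive. Tac1 was the only member with another Ensembl entry in v5 than in the v6 table, where the median was 0.208. What this entry changes was not tested. Over strain means in v5 the Tac1 pairs had a median of 0.508 and the 28 other pairs 0.490, so Tac1 did not stand apart there. Within single sequencing batches the median r over the 36 pairs was 0.252 to 0.783 in 15 batches with at least 6 animals. Adora2a and Rgs9 had r from 0.522 to 0.939 in those batches, and the median r of the 8 pairs of Tac1 ran from -0.460 to 0.651.

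Over the 69 strain means all 36 pairs were positive, with a median r of 0.523, and 35 passed the permutation test adjusted over 36 pairs. Adora2a with Rgs9 and with Ppp1r1b had the highest r, as over animals, and the pairs after them differed from those over animals. Adora2a and Rgs9 had r = 0.872 (rho = 0.860), Adora2a and Ppp1r1b 0.846 (0.832), Ppp1r1b and Rgs9 0.771 (0.738) and Drd2 and Adora2a 0.770 (0.682). The permutation p was 1e-05 for r and rho in these 4 pairs, and 1.8e-05 and 2.4e-05 after adjustment. Without the 2 farthest strains r was between 0.735 and 0.850. The pair that did not pass was Tac1 and Drd2, with r = 0.133 and rho = 0.125 (permutation p 0.276 and 0.305, the same after adjustment). Tac1 was nearer to the others over strains than over animals, with a median r of 0.334 over its 8 pairs. With Drd1 its r was 0.596 (rho = 0.594, permutation p 1e-05 for both, 1.8e-05 and 2.4e-05 after adjustment, r = 0.562 without the 2 farthest strains) over strains, whereas it was 0.215 over animals. Strain means of 2 or 3 animals still hold part of the spread between animals. When that part was subtracted, a step chosen after seeing the data, the median r of the strain components was 0.621. Such a value can exceed 1, as it did for Drd1 and Tac1 (1.01), and the lowest was 0.098 for Pdyn and Drd2.

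**Figure D2:**
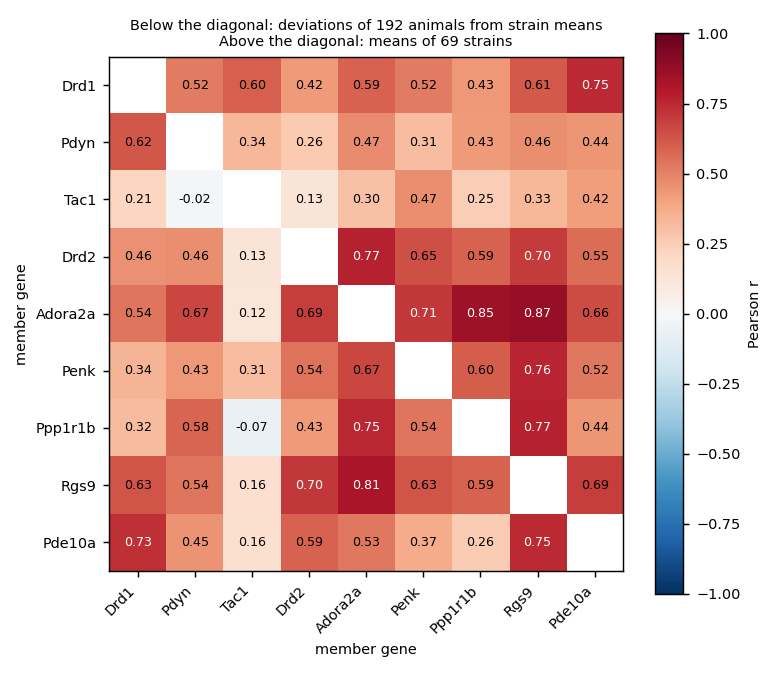
Pearson r for the 36 pairs of members, below the diagonal over deviations of 192 animals from their strain means and above the diagonal over the means of 69 strains, with both axes listing the member genes and colour giving r from -1 to 1. The row and column of Tac1 are pale below the diagonal, and the block of Adora2a, Ppp1r1b and Rgs9 is dark on both sides, with r = 0.813 and 0.872 for Adora2a and Rgs9.

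Grouped by class, the 3 pairs of indirect-pathway genes had a median r of 0.665 over animals and 0.709 over strains. The 3 pairs of direct-pathway genes had 0.215 over animals and 0.521 over strains. Pairs of a direct with an indirect gene had 0.434 and 0.422, and pairs of an indirect gene with a gene that both classes use had 0.587 and 0.655. The direct-pathway median over animals comprised r = 0.620 for Drd1 and Pdyn and the 2 pairs with Tac1. These medians are descriptions of 3 to 9 pairs that share genes, and no test was made between classes.

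Repeated libraries of a single animal gave a further comparison. The table holds libraries of the animal SHR/OlaIpcv 1 from 12 batches and of SHR/OlaIpcv 4 from 6. The labels do not state whether the repeats started from the same RNA. Adora2a ran from 9.11 to 10.22 over the 12 libraries, with a median of 9.89 and an SD of 0.292, which was 1.32 times the SD between animals of 1 strain. Ppp1r1b ran from 11.92 to 12.77 (ratio 1.28) and Penk from 11.71 to 12.26 (ratio 1.17). These ratios above 1 rested on the library of batch 11. Without it, a setting chosen after seeing the data, the ratio was 0.780 for Adora2a (SD 0.173), 0.818 for Ppp1r1b and 0.884 for Penk, whereas leaving out any other single library left all 3 above 1. With all 12 libraries Drd2 had a ratio of 0.978, Rgs9 0.970, Pde10a 0.796, Pdyn 0.781 and Tac1 0.512. Drd1 was the steadiest, running only from 10.50 to 10.69 with a ratio of 0.322. The median ratio over all genes was 1.04, and 0.908 without the batch 11 library. Over the 6 libraries of SHR/OlaIpcv 4 the ratios ran from 0.303 for Drd1 to 0.958 for Tac1, beside a median of 0.849 over all genes.

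**Figure D3:**
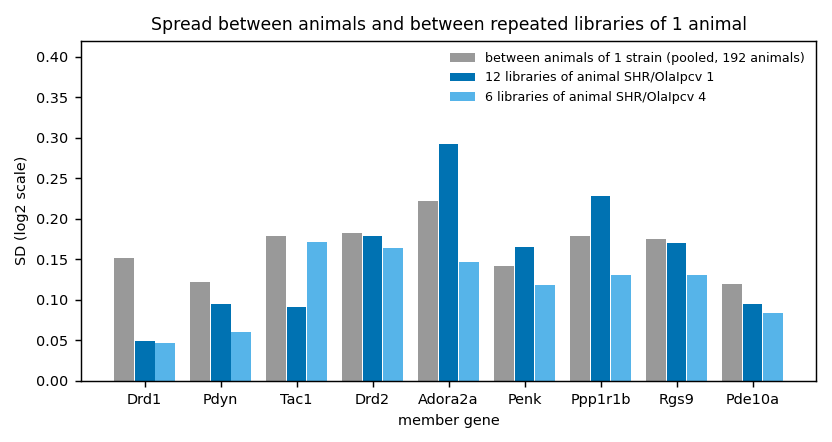
SD of each member (log2 scale, vertical axis) between animals of 1 strain (grey, pooled over 192 animals), between the 12 libraries of SHR/OlaIpcv 1 (dark blue) and between the 6 libraries of SHR/OlaIpcv 4 (light blue). Bars of Drd1 fall to 0.049 and 0.046 in the repeated libraries from 0.152 between animals, whereas the bar of Adora2a is 0.292 in the 12 libraries, 0.173 in the 11 without batch 11 (not drawn) and 0.147 in the 6, beside 0.222 between animals.

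The repeated libraries also co-varied in part. Over the 12 libraries r was 0.931 for Ppp1r1b and Rgs9 (rho = 0.727), 0.928 for Adora2a and Ppp1r1b (0.685) and 0.910 for Adora2a and Rgs9 (0.727). A library of batch 11 was the lowest in these 3 genes, with Adora2a at 9.11, Ppp1r1b at 11.92 and Rgs9 at 10.01, and its median over all genes was the lowest of the 12, at 8.18. Without the 2 libraries farthest from the median of the gene named first, r was 0.646, 0.854 and 0.782. Drd1 and Pde10a, at 0.731 between animals, had r = 0.330 between the libraries. Adora2a and Pde10a, at 0.531 between animals, had r = -0.136, and Tac1 and Ppp1r1b had r = -0.599. Without the 2 farthest libraries, chosen in the same way, r was 0.130 for Drd1 and Pde10a and -0.628 for Tac1 and Ppp1r1b. For Adora2a and Pde10a it was then 0.397, so the sign of that pair rested on those libraries. The median r over the 36 pairs was 0.293 in these 12 libraries and 0.075 in the 6 libraries of SHR/OlaIpcv 4, where Adora2a and Rgs9 had r = 0.847. The libraries of an animal share its tissue and differ in batch, so these values are given as descriptions without a test.

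The balance of direct and indirect genes was measured as the mean of Drd1, Pdyn and Tac1 minus the mean of Drd2, Adora2a and Penk in each animal. Its value has no meaning for a single animal, because levels of different genes are not on a common scale, and only differences between animals or strains are read. Over strains the direct-pathway mean and the indirect-pathway mean rose together, with r = 0.540 over 69 strains and 0.592 over 192 animals. The difference between them had an R2 of 0.578 over strains and a within-strain SD of 0.129. Among differences of 2 genes of the same class, only Drd1 minus Pdyn had a higher R2. A difference of 2 single genes is not a like measure for a difference of means over 3 genes, so no conclusion is drawn. Differences of 2 direct-pathway genes had an R2 from 0.376 (Drd1 minus Tac1) to 0.661 (Drd1 minus Pdyn). Those of 2 indirect-pathway genes had 0.452 (Drd2 minus Penk) to 0.526 (Adora2a minus Penk). Strain means of the direct minus indirect level ran from -1.11 in LEXF1C/Stm and -1.10 in FXLE15/Stm to -0.55 in BN-Lx/Cub and -0.54 in HXB23/Ipcv, a range of 0.57. The 2 LEXF1C/Stm animals had -1.17 and -1.06, and the 3 HXB23/Ipcv animals had -0.59, -0.52 and -0.52. These strains were picked as the ends of 69 ordered means, so no weight is put on their not overlapping. In strains with 3 animals the range was 0.47. In LEXF1C/Stm the direct-pathway genes were below the average strain (Tac1 -0.30, Drd1 -0.17) and the indirect-pathway genes above it (Adora2a 0.22, Drd2 0.17). HXB13/Ipcv, the next lowest strain at -1.01, had high indirect-pathway genes, with Drd2, Adora2a and Penk each 0.28 to 0.29 above average. In HXB23/Ipcv Adora2a was 0.39 and Drd2 0.31 below average and Drd1 was also low, at -0.19.

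The difference was lower where other striatal genes were higher. Its r with the mean of 15 other striatal genes was -0.514 over strains and -0.595 over animals, and over strains its r was -0.703 with Drd2 and -0.559 with Adora2a but 0.135 with Drd1, genes from which the difference is itself built. On the log2 scale the indirect-pathway genes had the larger spread, with an SD of strain means of 0.139 against 0.112 for the direct-pathway genes. The receptor pair alone, whose genes are part of the direct minus indirect level, shared its lower end but not its upper end. FXLE15/Stm and LEXF1C/Stm were the lowest strains in both measures. HXB23/Ipcv, highest in the direct minus indirect level, had Drd1 minus Drd2 of 1.66 and was not the highest strain there. Drd1 minus Drd2 had an R2 of 0.513 and ran from 1.13 in FXLE15/Stm to 1.82 in HXB24/Ipcv, a range of 0.69. In strains with 3 animals the range was 0.51. The panels averaged -0.79 ± 0.12 (SD, 30 HXB/BXH strains), -0.86 ± 0.13 (16 FXLE/LEXF strains) and -0.78 ± 0.11 (23 other strains) in the direct minus indirect level. No test was made on these differences, which are built from the members.

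**Figure D4:**
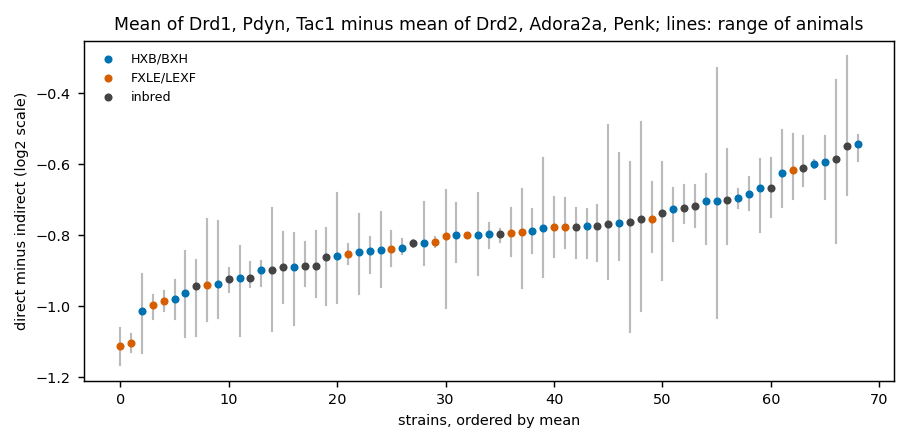
Mean of Drd1, Pdyn and Tac1 minus the mean of Drd2, Adora2a and Penk (log2 scale, vertical axis) in 69 strains ordered by mean along the horizontal axis, with points for strain means coloured by panel and lines for the range of animals. Strain means run from -1.11 to -0.54 without a break, and lines of most strains overlap those of many others.

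The other 15 striatal marker genes, among them Adcy5, Gng7, Ptpn5 and Pde1b, gave a mean that holds no member. Their mean followed the mean of the 9 members with r = 0.909 over animals, and 14 of the 15 genes had a positive r. Over strains r was 0.859, and all 15 were positive, though Slc35d3 (0.057), Syndig1l (0.137) and Strip2 (0.173) were low. Between repeated libraries of 1 animal, which share its tissue, r was 0.868 in the 12 of SHR/OlaIpcv 1 and 0.859 in the 6 of SHR/OlaIpcv 4, so the mean also moved where the animal was the same. Other lists moved with the members in the 12 libraries too, among them the hypothalamus list (r = 0.713), the single pituitary gene (0.685), the hippocampus list (0.603), the cerebellum list (-0.602), the general brain list (-0.621) and the liver list (-0.778), and in the 6 libraries these were 0.118, 0.354, 0.305, 0.472, -0.478 and -0.317. How much of the striatal mean stands for the amount of striatum was not tested. A strain effect was called for 13 of the 15, beside 37.3% of all genes, and it was clearest in Syndig1l (R2 0.763, adjusted p from limma 1.21e-15). Adora2a followed this list most closely, with r = 0.895 over animals and 0.903 over strains, and it rose by 2.06 for each unit of the list over strains. Rgs9 had r = 0.842 and 0.849, Drd2 0.761 and 0.782, and Ppp1r1b 0.732 and 0.786. Pdyn followed it more over animals (0.714) than over strains (0.445). Pde10a had 0.635 and 0.677, Drd1 0.614 and 0.612 and Penk 0.608 and 0.607. Tac1 had 0.071 and 0.199, the lowest values of the 9.

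**Figure D5:**
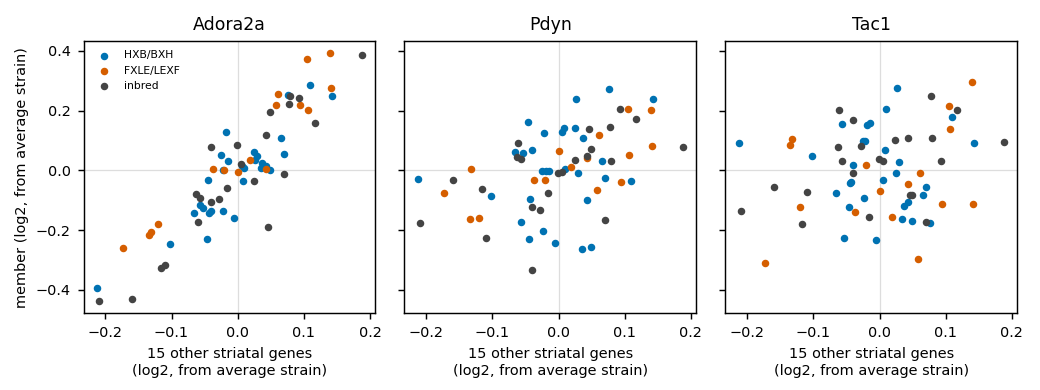
Strain means of Adora2a, Pdyn and Tac1 (log2 difference from the average strain, vertical axes) against the mean of 15 other striatal genes (log2 difference from the average strain, horizontal axes) in 69 strains coloured by panel. Adora2a follows the list (r = 0.903), Pdyn does so loosely (0.445) and Tac1 is scattered (0.199).

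Marker lists of other regions and tissues were read against the mean of the 9 members in the same way. Over animals the lists of cortex (r = 0.239) and hippocampus (0.315) were positive, and those of cerebellum (-0.390), thalamus (-0.144) and the general brain list (-0.315) were negative. Over strains cortex had 0.426, hippocampus 0.240, cerebellum -0.078, the brain list -0.344 and thalamus -0.590, with 0 of 4 thalamic genes positive. The lists of olfactory bulb, hypothalamus, hindbrain, choroid plexus, pituitary, blood and liver had r between -0.172 and 0.121 at both levels. The part of dissection, or of any of these tissues, in the members' values was not tested. All 6 genes of the general brain list were measured, with mean levels of 14.16 to 17.31.

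The strain effect was also fitted by limma with the level of the 15 striatal genes held as a covariate. Of the 9 members 7 were called, beside 41.6% of all genes. Pdyn had the lowest adjusted p, 1.11e-14, with an R2 of 0.767. In this fit R2 is the strain share of the variance left after the covariate, so it is not the 1-way R2 given above. Penk (adjusted p 2.52e-05), Drd1 (9.34e-04), Pde10a (0.00128), Adora2a (0.00341), Tac1 (0.0392) and Rgs9 (0.0406) were the others, and Ppp1r1b (0.0653) and Drd2 (0.128) were not called. Without the animals numbered 1, 2 and 3, the counts were 2, 3 and 4, beside 15.9%, 19.7% and 27.7% of all genes.

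Genes with the most similar pattern were sought among 9935 genes above the table median. Over animals Pde1b, a calcium-dependent phosphodiesterase, was closest to Adora2a (r = 0.843), Ppp1r1b (0.786), Rgs9 (0.692) and Penk (0.691). Drd2 was followed most closely by Kremen1 (0.717), then by Gng7 (0.699) and Adcy5 (0.676), a G protein subunit and an adenylyl cyclase of striatal neurons. Pdyn was followed by Smpd3 (0.685), Pde1b (0.677) and Ptpn5 (0.643). The 3 genes nearest to Tac1 were Gad2, which encodes an enzyme of GABA synthesis (0.636), Timm29 (0.587) and Naa20 (0.585), none of them in the striatal list. Of the 27 places over all members, 12 were taken by genes of the striatal list over animals and 11 over strains. Over strains Pde1b was closest to Adora2a (0.871), Rgs9 (0.774) and Penk (0.618), Asic4 to Ppp1r1b (0.838), Gng7 to Drd2 (0.792) and Arpp21 to Pde10a (0.693). Pdyn and Tac1 had lower leading values, with Rab40b at 0.607 and Emc6 at 0.601.

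Others among the 3 highest over animals were Arel1 and Kcnk2 for Drd1, Syndig1l and Kremen1 for Adora2a, Rasgrp2 and Uchl1 for Penk, Pdxp for Ppp1r1b, Syndig1l and Actn2 for Rgs9, and Dlgap2 and Slc24a4 for Pde10a. Over strains they were Arpp21 and Rarb for Drd1, Agk and Crym for Pdyn, Ldah and Ergic2 for Tac1, Adcy5 and Pde1b for Drd2, Smpd3 and Kremen1 for both Adora2a and Rgs9, Tomm34 and Scn4b for Penk, Pde1b and Marchf9 for Ppp1r1b, and Arel1 for Pde10a. The points share library, batch and depth with the members, and these r are descriptions of the genes highest among many.

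Of 30 genes of dopamine, cyclic AMP and peptide signalling, 29 were measured, and Drd4 was not in the table. A strain effect was called by limma for 9 of the 29 (31.0%), beside 37.3% of all genes. Ddc, the enzyme that makes dopamine from L-DOPA, was the clearest, with an R2 of 0.634 and an adjusted p of 4.74e-07. Gnb5 (0.606) and Rgs7bp (0.538), partners of Rgs9, and Gnal (0.555), the G protein alpha subunit that couples Drd1 to adenylyl cyclase, were also called. Pde1b and Gng7 belong to the striatal list too. The others were Tacr1 (0.500), the substance P receptor, Pde1b (0.493), Slc18a2 (0.488), the vesicular monoamine transporter, Arpp21 (0.483) and Gng7 (0.477). Over strains the r of these genes with the mean of the members was 0.813 for Pde1b, 0.595 for Gng7 and 0.524 for Arpp21, but 0.097 for Rgs7bp, -0.276 for Ddc and -0.485 for Slc18a2. The dopamine receptors Drd3 and Drd5 (adjusted p 0.306 and 0.0634) and the opioid receptors Oprk1, Oprm1 and Oprd1 (0.271, 0.607 and 0.159) were not called.

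The table of transcripts listed 26 for the 9 members, from 1 each for Pdyn, Drd2 and Rgs9 to 9 for Pde10a. A strain effect was called by limma for 2 of the 26, beside 13.9% of all 45991 transcripts. They were the single Pdyn transcript, NM_019374.3 (R2 0.649, adjusted p 2.08e-06), which stood at 9.47 in the lowest animal, 10.08 in the median and 10.56 in the highest, and the Penk transcript XM_006237835.2 (R2 0.584, adjusted p 5.93e-04), at 11.47, 12.04 and 12.62. The Ppp1r1b transcript NM_138521.1 came next, with an adjusted p of 0.0819, and stood at 11.43, 12.32 and 12.95. The 9 Pde10a transcripts had SDs over animals from 0.405 to 1.99, whereas the gene had 0.146. The 3 Tac1 transcripts had SDs of 0.565 to 0.985. The Adora2a transcripts NM_001357942.1 and NM_053294.5 had identical values in every animal and were therefore not separate measurements.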

How the data were processed

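Total RNA of brain was depleted of ribosomal RNA and sequenced from stranded libraries. The deposited values of the v7.1 RefSeq gene table are on a log2 scale, and their further processing is not given in the sources used here. Submitters' processing notes name HISAT2 2.2.1, StringTie 2.2.1, RSEM 1.3.3 and Bowtie2 2.4.5 among others. For the earlier v5 table the authors trimmed with cutadapt 1.9.1, aligned with HISAT2 2.1.0 to rn6, estimated counts with RSEM, removed 1 RUV factor and applied the regularized log2 transformation. No counts were used, so the depth of each sample is unknown, and the library medians of 8.18 to 8.42 only show that the libraries were on a common scale.

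In the table, 73 spike-in features were dropped, libraries of the same strain and replicate number were averaged to 1 animal, and 20859 genes were tested with limma 3.58.1 in R 4.3.3 at 5% FDR. Each animal is a separate rat by its replicate number, and p-values measure the spread between these animals. An animal with libraries of several batches was given the lowest of their batch numbers. Correlations used Python 3.11.15 with scipy 1.17.1 and 100000 permutations. The procedures were tested on simulated data. The members, lists and motifs were chosen with earlier results of these data known. Genes named for likeness were the 3 highest r per member, over animals and over strains, among non-members with a mean above the table median, and some of them are not reported here. Alternatives were batch as a covariate (160 animals of 56 connected strains), a replicate block, leaving out each replicate number, leaving out LE/Stm 2 and the 3 LEW/Crl animals, and, chosen after seeing the data, HXB17/Ipcv 2 as well, a filter on low values, strains with 3 animals, subtraction of each animal's median, and the v5 and v6 Ensembl tables. Same-numbered animals of different strains did not deviate together (mean r 0.013 over 5927 pairs, against -0.006 over 12232 pairs of other numbers). Of the 214 library columns, 200 were matched to samples by description and 14 by title. For 23 of them the title gives another batch than the batch label, which was used, and for 3 of FXLE12/Stm the column gives another replicate number than the title, which was used. For the LEXF9/Stm column the description gives another batch than the batch label of the matched sample, and the label was used.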

Additional observations from a re-analysis of the deposited data

How the results depend on the processing

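Depth is unknown, strains had 1 to 3 animals, and some batches held few strains, so small strain effects could be missed. The cause of each change below was not tested, except that settings that leave animals or strains out, or test fewer genes, have fewer of them by construction. Of the members, 8 had a strain effect, against 2 to 6 with animals of 1 replicate number left out, 5 in strains with 3 animals, 5 in the v6 table and 9 in v5. Of all genes 37.3% were called, against 14.4% to 29.1%, 32.1%, 32.3% and 63.6% in the same order. In the HXB/BXH family the count was 3, against 1 in each fit with a replicate number left out, 1 in the v5 table and 4 with batch as a covariate. The shares of all genes there were 26.5%, 12.6% to 14.2%, 17.5% and 38.8%. In the FXLE/LEXF family it was 1, against 0 with batch as a covariate, 0 to 1 with a replicate number left out, 0 in strains with 3 animals and 0 in v6. The shares of all genes there were 7.47%, 4.71%, 2.46% to 5.1%, 4.08% and 2.55%. In the other inbred strains the count of members was 7, against 0 to 6 with a replicate number left out, beside 23.2% and 8.5% to 32.1% of all genes. With the mean of the 15 striatal genes held over all strains it was 7, against 2 to 4, beside 41.6% and 15.9% to 27.7% of all genes. Transcripts of the members called numbered 2, against 4 with batch and 1 with any replicate number left out. Of all 45991 transcripts 6379 were called, and 2214 to 9606 over the alternatives.

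In the v5 table a single member was called between BN-Lx/Cub and SHR/OlaIpcv (Pde10a, -0.38, adjusted p from limma 0.0429), and 2 between SHR/OlaIpcv and WKY/NCrl (Drd1, 0.42, 0.0231, and Pde10a, 0.48, 0.00126), where 4504 genes were called in all, against 172. Strain and member pairs called numbered 7, against 2 with batch, 0 to 5 with a replicate number left out, 3 among genes above the table median and 30 in v5. As shares of the strain and member pairs these were 1.05%, 0.397%, 0% to 0.761%, 0.507% and 7.41%, beside 1.2%, 1.13%, 0.391% to 0.664%, 0.623% and 5.74% of all gene and strain pairs. It was 8 without LE/Stm 2, the LEW/Crl animals and HXB17/Ipcv 2. The range of the direct minus indirect level was 0.57, against 0.79 with batch, 0.47 in strains with 3 animals and 0.55 to 0.64 with a replicate number left out. That of Drd1 minus Drd2 was 0.69, against 0.51 in strains with 3 animals and 0.66 to 0.72 with a replicate number left out. The median r of the 8 Tac1 pairs was 0.143 over animals, against 0.018 to 0.275 with a replicate number left out and 0.336 in v5, and 0.334 over strains, against 0.103 to 0.369 and 0.508. Over all pairs the median r kept between 0.470 and 0.534 over animals and 0.424 and 0.621 over strains in all alternatives, including 0.508 over animals without HXB23/Ipcv 2, a setting chosen after seeing the data. Signs of single pairs changed in some settings. Over strains 34 of the 36 pairs were positive without replicate 2 (lowest r -0.122) and 36 in the other settings, and over animals 33 to 36 were positive.

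Of all genes, 7785 had a strain effect, against 12279 with batch, 3003 to 6065 with a replicate number left out and 3579 of those above the table median. With the replicate number as a block, 7 members had a strain effect (Rgs9 then had an adjusted p from limma of 0.0551) and 6 with the striatal gene mean held, beside 38.3% and 41.1% of all genes. The block left 7 strain and member pairs, a median r of 0.524 over animals and 0.522 over strains, and 410 and 98 genes in the 2 contrasts, against 940 and 172.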
